A study of Homo sapiens with 12 samples.

Results

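The genes described here are 9 interferon-stimulated genes: IFIT1, IFIT2, IFIT3, ISG15, MX1, OAS1, IRF9, IFI44 and IFI6. They were chosen by name, and all 9 are among the 25365 gene names of the expression table. They were examined because DNA damage caused by ligands of the G-quadruplex (G4) can set off innate immune sensing. The cells were A549, a human epithelial line that came from a lung adenocarcinoma, either wild-type (WT) or PARP3-/-. Each genotype received vehicle (DMSO) or pyridostatin, a small molecule that stabilises G4 structures, at 1 μM for 24 h. Each of the 4 groups had 3 biological replicates, giving 12 RNA-seq libraries with values in FPKM (fragments scaled to transcript length in kilobases and to the mapped reads). The PARP3-/- cells were edited with Cas9 and then cloned by serial dilution, so that a difference between genotypes and a difference between clones cannot be told apart.

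Interferons are secreted proteins that bind receptors on the cell surface, and those other than interferon-gamma activate the kinases JAK1 and TYK2. These phosphorylate STAT proteins, among them STAT2, which join IRF9 to form the complex ISGF3. ISGF3 binds the interferon-stimulated response element in promoters and switches on antiviral genes, whereas interferon-gamma acts mainly through STAT dimers at a different element. DNA in the cytosol can start the same programme through cGAS, STING, TBK1 and IRF3. Lung epithelial cells both secrete interferons and respond to them.

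Of the 9 genes, 8 had promoters in the RefSeq table used (GRCh38.p14, 250 bases before to 50 bases after each annotated start, 12 windows), and IFIT2 was not among them. The core of the interferon-stimulated response element, searched as GAAANNGAAA on both strands (TTTCNNTTTC on the other), was found in 6 of these 8 genes, or 75.0%. It was found in 4.38% of all 27305 genes with a promoter, and in 3.57% of all 35116 windows. Among the other genes of the interferon pathway described further on, 52.4% of the 82 with a promoter held it. The matches are printed because they show the sequence that this family has in common. For each gene with a match, the 30 bases around the match nearest to an annotated start are given 5′ to 3′ on the strand of the gene, with the motif in capitals. Overlapping and neighbouring matches within these bases are all in capitals.

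IFIT1 (chr10:89392504-89392533, + strand): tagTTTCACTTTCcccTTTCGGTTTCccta
IFIT3 (chr10:89332468-89332497, + strand): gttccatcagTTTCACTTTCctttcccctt
ISG15 (chr1:1013377-1013406, + strand): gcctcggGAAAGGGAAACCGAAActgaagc
IFI6 (chr1:27672266-27672295, - strand): gcagagtgcaGAAATAGAAActccgacagg
IFI44 (chr1:78649761-78649790, + strand): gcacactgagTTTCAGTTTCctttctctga
MX1 (chr21:41420559-41420588, + strand): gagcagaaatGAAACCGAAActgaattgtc

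The first base of the nearest match lay 103 bases before the start in IFIT1, 51 in IFIT3, 107 in ISG15, 93 in IFI6 and 18 in IFI44, and 11 bases after the start in MX1. The windows of OAS1 and IRF9 held no match of these letters. The STAT dimer motif TTCNNNGAA, which reads the same on both strands, was found in OAS1, IRF9 and 1 window of MX1, which is 37.5% of the 8 genes against 9.38% of all genes in the table. Because pyridostatin binds G4, the windows were also searched for 4 runs of at least 3 G separated by 1 to 7 bases, on either strand. ISG15 and MX1 held such a stretch, that is 25% of the 8 genes against 27.9% of all genes. These are matches of letters, and no binding was measured.

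The lowest FPKM values move in steps of single reads, and the depth estimated from these steps lay between about 22000000 and 31100000 reads per library. The WT vehicle library of replicate 2 stood apart from the others, with the highest sum of FPKM (563473, against 492839 to 525124) and the largest deviation from its group. PARP3 RNA was not lower in the libraries labelled PARP3-/-. The study places the deletion in the first exon and shows it by Sanger sequencing. A level summed over the whole gene does not read such a deletion by itself, so this level does not check the label. It was 3.73 ± 0.293 FPKM in WT and 4.41 ± 0.447 FPKM in PARP3-/- with vehicle, and 3.79 ± 0.243 and 4.58 ± 0.245 FPKM with pyridostatin (SD, n = 3 each; exact two-sided permutation p = 0.1 in both, the smallest that 3 against 3 allows). PARP3-/- stands below for the libraries that carry this label. CDKN1A, which encodes the cell cycle inhibitor p21 and is a target of p53 in the DNA damage response, rose with pyridostatin in both genotypes. Its level went from 87.0 ± 7.27 to 193 ± 3.40 FPKM in WT and from 100.1 ± 3.90 to 208 ± 8.67 FPKM in PARP3-/- (log2 fold changes 1.14 and 1.05, limma adjusted p = 1.12e-05 and 3.21e-05).

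All 9 genes were detected in every library, at levels that differed widely. OAS1, which makes the 2-5A messenger that activates RNase L, stood well above the rest at 33.8 FPKM on average and between 29.5 and 40.3 FPKM in the 12 libraries. IRF9 averaged 6.42 FPKM (5.51 to 7.15), ISG15, a ubiquitin-like modifier, 6.31 (4.94 to 8.53), and IFI6, a mitochondrial and endoplasmic reticulum protein with antiviral activity, 5.12 (3.64 to 6.16). The ranges of these 3 genes overlapped, but IRF9 was above IFI6 in 12 of 12 libraries, while IRF9 was above ISG15 in 7 and ISG15 above IFI6 in 10. IFIT3, of the IFIT family that binds viral RNA, followed apart at 2.00 FPKM (1.65 to 2.55). The last 4 were IFIT1 at 0.718 (0.557 to 0.882), the dynamin-like GTPase MX1 at 0.634 (0.522 to 0.956), IFIT2 at 0.577 (0.366 to 0.741) and IFI44 at 0.511 FPKM (0.335 to 0.843), again with overlapping ranges. Relative to all names in the table, of which 6033 were at 0 in all libraries, OAS1 lay at percentile 90.2 and IFI44 at percentile 49.4. Relative to the detected names alone, OAS1 lay at percentile 87.2 and IFI44 at percentile 33.6.

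The number of reads behind these levels differed widely. OAS1 rested on about 2014 reads in the median library and IRF9 on about 315. ISG15, IFIT3 and IFI6 rested on about 125, 124 and 108 reads, IFIT1 on 84, IFIT2 on 61, MX1 on 56 and IFI44 on 21. The standard deviation within groups was 5.23% of the mean for OAS1 and 28.2% for IFI44, while counting error alone gives 2.23% and 21.7% at these numbers of reads. For the other 7 genes the spread within groups ran from 7.61% (IRF9) to 18.7% (MX1) and also lay above counting error. The numbers of reads are approximate, since the longest coding transcript was taken for each gene.

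**Figure D1:**
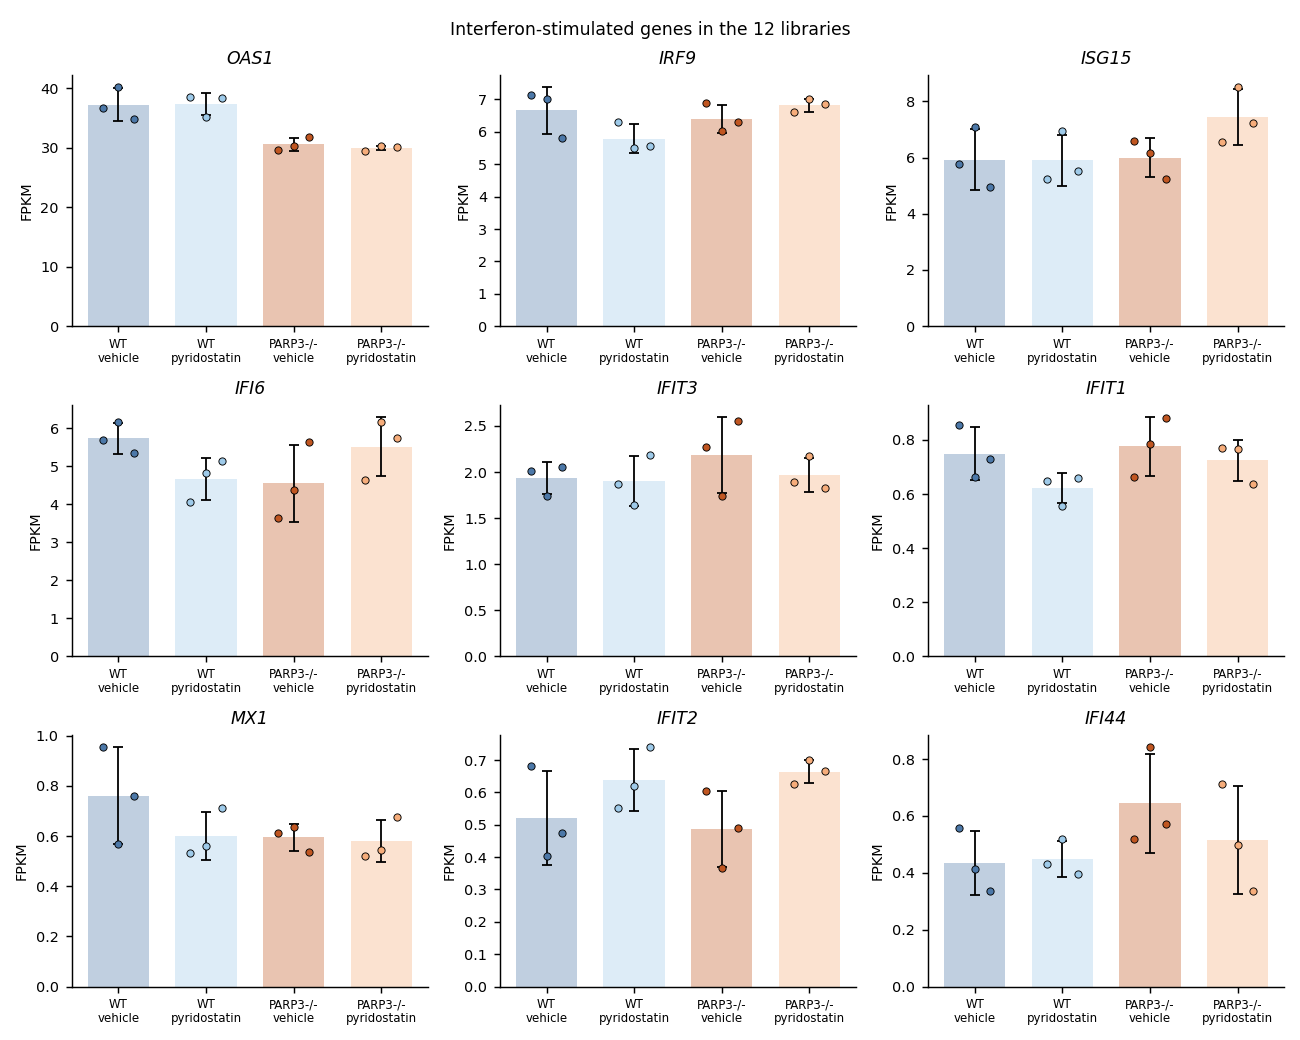
Level in FPKM (vertical axes, each from 0) of the 9 interferon-stimulated genes in the 4 groups, with 1 point per library, bars at the mean of 3 libraries and error bars of 1 SD. OAS1 was lower in all 6 PARP3-/- libraries (29.5 to 31.8 FPKM) than in the 6 WT libraries (34.9 to 40.3 FPKM), and in the other 8 genes the values of WT and PARP3-/- libraries overlapped over both treatments.

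The first question was whether pyridostatin changed these genes. It did not raise or lower any of them past the test in either genotype, in the same libraries in which CDKN1A rose. Of the 9 genes, 5 averaged 1 FPKM or more over the 12 libraries and entered the test across all 11881 genes (limma on log2(FPKM + 1), called at an adjusted p under 0.05). None of the 5 was called in WT, where 4.17% of all genes tested were called, and none in PARP3-/-, where 5.56% were. At an unadjusted p under 0.05 there was 1 of the 5 genes in WT (IRF9) and 0 in PARP3-/-, against 20.3% and 19.6% of all genes tested. The median log2 fold change of the 5 genes was -0.02 in WT and 0.08 in PARP3-/-, against 0.00 over all genes in both.

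OAS1 was 36.7, 40.3 and 34.9 FPKM in the WT vehicle libraries and 38.5, 35.2 and 38.3 FPKM with pyridostatin. These values overlapped, and the log2 fold change was 0.00 (95% interval -0.12 to 0.12, adjusted p = 0.986). In PARP3-/- cells OAS1 was 29.7, 30.2 and 31.8 FPKM with vehicle and 29.5, 30.3 and 30.1 FPKM with pyridostatin, with a log2 fold change of -0.03 (-0.15 to 0.09, adjusted p = 0.828). On this scale the upper end of the 95% interval is a 1.09-fold rise in WT and a 1.07-fold rise in PARP3-/-.

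IRF9, the DNA-binding part of ISGF3, was 7.15, 7.03 and 5.82 FPKM with vehicle and 6.30, 5.51 and 5.57 FPKM with pyridostatin in WT. The groups overlapped through the third vehicle library, and the log2 fold change of -0.17 (-0.34 to -0.01) did not pass after adjustment (adjusted p = 0.231). Its levels in PARP3-/- cells were 6.88, 6.04 and 6.29 FPKM with vehicle and 6.61, 7.005 and 6.87 FPKM with pyridostatin. They overlapped as well, with a log2 fold change of 0.08 (-0.08 to 0.25, adjusted p = 0.617).

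ISG15 was 5.77, 7.08 and 4.94 FPKM in WT with vehicle and 5.23, 6.93 and 5.54 FPKM with pyridostatin, so that the replicates of a group differed by more than the group means. The log2 fold change was -0.00 (-0.30 to 0.29, adjusted p = 0.997). ISG15 in PARP3-/- cells was 6.59, 6.15 and 5.22 FPKM with vehicle and 6.55, 8.53 and 7.23 FPKM with pyridostatin. The pyridostatin libraries included the highest ISG15 value of the series, but 1 of them lay below a vehicle library, and the log2 fold change of 0.27 (-0.03 to 0.56) did not pass (adjusted p = 0.303). The upper end of that interval is a 1.48-fold rise.

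IFI6 had its 3 WT vehicle libraries at 5.68, 6.15 and 5.36 FPKM, all above the pyridostatin libraries at 4.06, 4.82 and 5.14 FPKM, yet the log2 fold change of -0.25 (-0.54 to 0.04) did not pass (adjusted p = 0.319). In PARP3-/- cells the values were 3.64, 4.38 and 5.64 FPKM with vehicle and 4.64, 6.16 and 5.76 FPKM with pyridostatin. These overlapped, with a log2 fold change of 0.24 (-0.05 to 0.53, adjusted p = 0.357). IFIT3 was 2.01, 1.74 and 2.06 FPKM with vehicle and 1.88, 1.65 and 2.18 FPKM with pyridostatin in WT, and 2.27, 1.74 and 2.55 against 1.90, 2.18 and 1.83 FPKM in PARP3-/-. The groups overlapped in both genotypes, and the log2 fold changes were -0.02 (-0.25 to 0.21, adjusted p = 0.945) and -0.10 (-0.32 to 0.13, adjusted p = 0.676).

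The 4 genes below 1 FPKM were fitted without the filter on the mean, a choice made after their levels were seen. None of them was called either. IFIT1 in WT was 0.855, 0.661 and 0.731 FPKM with vehicle and 0.646, 0.557 and 0.660 FPKM with pyridostatin. The groups did not overlap, the nearest values being 0.661 and 0.660 FPKM, and the log2 fold change was -0.11 (adjusted p = 0.413). IFIT1 in PARP3-/- cells was 0.664, 0.785 and 0.882 FPKM with vehicle and 0.771, 0.766 and 0.638 FPKM with pyridostatin (-0.04, adjusted p = 0.822). IFIT2 was 0.682, 0.404 and 0.476 FPKM with vehicle and 0.553, 0.621 and 0.741 FPKM with pyridostatin in WT (0.11, adjusted p = 0.549), with overlapping values. In PARP3-/- cells the pyridostatin libraries of IFIT2, at 0.627, 0.699 and 0.665 FPKM, lay above all vehicle libraries, at 0.604, 0.366 and 0.490 FPKM, and the log2 fold change of 0.17 (-0.00 to 0.33) did not pass (adjusted p = 0.347).

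MX1 was 0.956, 0.569 and 0.759 FPKM with vehicle and 0.531, 0.559 and 0.711 FPKM with pyridostatin in WT. It was, in PARP3-/- cells, 0.612, 0.637 and 0.535 FPKM against 0.522, 0.544 and 0.675 FPKM. Both pairs of groups overlapped, and the log2 fold changes were -0.13 (adjusted p = 0.460) and -0.01 (adjusted p = 1). IFI44, a cytoplasmic protein of uncertain function, was 0.557, 0.414 and 0.335 FPKM with vehicle and 0.429, 0.519 and 0.395 FPKM with pyridostatin in WT, and 0.519, 0.843 and 0.571 against 0.714, 0.496 and 0.336 FPKM in PARP3-/-. These groups overlapped too, with log2 fold changes of 0.01 (adjusted p = 0.998) and -0.12 (adjusted p = 0.670). A pseudocount of 1 compresses changes at such levels. With a pseudocount of 0.1 the intervals widened, for IFI44 in WT to between -0.51 and 0.61 and for IFIT2 in PARP3-/- to between -0.03 and 0.83 (log2), so changes of that size are not excluded by these intervals.

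Counted over all 9 genes, the vehicle and pyridostatin values did not overlap for IFIT1 and IFI6 in WT, both lower with pyridostatin, and for IFIT2 in PARP3-/-, higher with pyridostatin. Groups that did not overlap made up 23.1% of all tested genes in WT and 32.3% in PARP3-/-. This background covers only genes that averaged 1 FPKM or more, whereas IFIT1 and IFIT2 averaged less. Of the 5 tested genes, only IFI6 in WT had groups without overlap, and none in PARP3-/-. That is near or below the background of these comparisons.

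**Figure D2:**
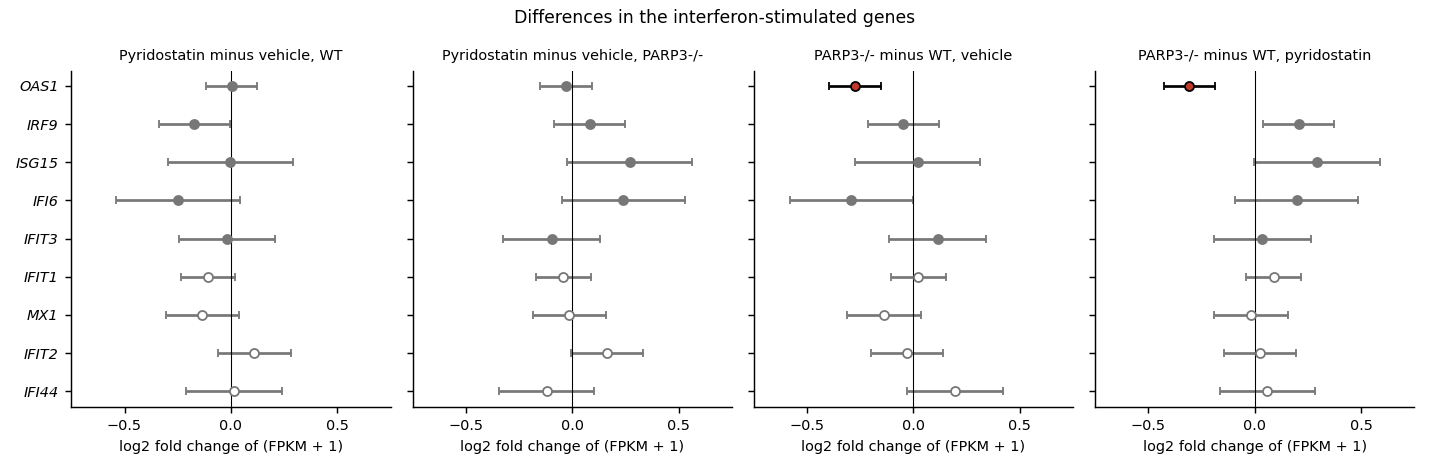
Differences in log2(FPKM + 1) (horizontal axes) for the 9 genes in the pyridostatin and genotype comparisons, with 95% intervals from limma. Filled points are the 5 genes tested with all others, open points the 4 genes below 1 FPKM fitted without the filter, and red marks an adjusted p under 0.05: only OAS1 is red, at -0.28 and -0.31 in the genotype comparisons.

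The second question was how the genes differed between PARP3-/- and WT cells. OAS1 was lower in both treatments in the libraries labelled PARP3-/-, and no other of the 9 genes passed the test. With vehicle the 3 PARP3-/- libraries (29.7 to 31.8 FPKM) lay below the 3 WT libraries (34.9 to 40.3 FPKM), with means of 30.6 ± 1.10 and 37.3 ± 2.78 FPKM. The log2 fold change was -0.28 (SE 0.0545, 95% interval -0.40 to -0.15, adjusted p = 0.00857, limma). With pyridostatin the PARP3-/- libraries (29.5 to 30.3 FPKM) again lay below those of WT (35.2 to 38.5 FPKM), with means of 29.96 ± 0.402 and 37.3 ± 1.84 FPKM and a log2 fold change of -0.31 (SE 0.0545, -0.43 to -0.19, adjusted p = 0.00423). Without the WT vehicle library of replicate 2 the difference with vehicle was -0.22 and still passed (OAS1, adjusted p = 0.0119). Fitted on the vehicle libraries alone, the first difference no longer passed (adjusted p = 0.0741). With the second threshold of the study, an absolute log2 fold change above 1, OAS1 was not called in either.

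That is 1 of 5 genes called in each comparison. Over all tested genes 9.41% were called with vehicle (6.4% higher and 3.01% lower in PARP3-/-) and 10.9% with pyridostatin (7.07% higher and 3.85% lower). Of the calls over all genes, 68.0% were higher in PARP3-/- with vehicle and 64.8% with pyridostatin, and these shares became 51.7% and 53.1% after a shift of all libraries to the same median. OAS1 remained lower and called under that shift in both treatments. The median log2 fold change of the 5 genes was -0.05 with vehicle and 0.20 with pyridostatin, against 0.01 over all genes in both.

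IRF9 did not pass in either treatment. With vehicle its groups overlapped (6.67 ± 0.734 FPKM in WT and 6.40 ± 0.430 in PARP3-/-, log2 fold change -0.05, adjusted p = 0.788). With pyridostatin the PARP3-/- libraries, at 6.61 to 7.005 FPKM, lay above the WT libraries, at 5.51 to 6.30 FPKM, and the difference of 0.21 (0.04 to 0.37) did not pass after adjustment (adjusted p = 0.115). ISG15 gave 0.02 with vehicle (adjusted p = 0.966) and 0.29 with pyridostatin (-0.00 to 0.59, adjusted p = 0.214), where its means were 5.90 ± 0.905 FPKM in WT and 7.44 ± 1.00 FPKM in PARP3-/-. IFI6 had the opposite sign in the 2 treatments, at -0.29 (-0.58 to -0.00, adjusted p = 0.228) with vehicle and 0.20 (adjusted p = 0.413) with pyridostatin, and neither passed. IFIT3 gave 0.11 (adjusted p = 0.600) and 0.03 (adjusted p = 0.891).

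Among the 4 low genes the largest difference was that of IFI44 with vehicle, at 0.435 ± 0.113 FPKM in WT and 0.644 ± 0.174 FPKM in PARP3-/- (log2 fold change 0.19, adjusted p = 0.359). The adjusted p of the other 7 differences of these genes lay between 0.406 (MX1 with vehicle) and 0.971 (MX1 with pyridostatin). Groups without overlap were seen for OAS1 with vehicle (1 of the 5 tested genes, against 24.2% of all tested genes). With pyridostatin they were seen for OAS1 and IRF9 (2 of the 5, against 35.2%). The groups of the 4 low genes overlapped in both treatments.

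Markers of other cell types were checked beside the genotype difference. All 6 epithelial markers averaged above 1 FPKM over the 12 libraries, with a summed level of 6912 to 8630 FPKM, while 0 of 5 markers of alveolar cells averaged 1 FPKM and SFTPB was listed at 0. Of 6 leukocyte markers only CD14 averaged 1 FPKM or more, and the summed level was 3.57 to 5.18 FPKM in WT and 5.49 to 7.36 FPKM in PARP3-/-, with CD3E at 0. The markers of plasmacytoid dendritic cells, a major source of interferon, summed to at most 0.0233 FPKM. The summed fibroblast and endothelial markers were also somewhat higher in PARP3-/- (1.29 to 1.93 against 0.780 to 1.16 FPKM over 5 genes, of which COL1A1 alone averaged 1 FPKM or more, and 0.245 to 0.375 against 0.116 to 0.213 FPKM over 3 genes). The endothelial sum was nearly all CDH5, at 0.233 FPKM on average, while PECAM1 and VWF averaged 0.00847 and 0.00172 FPKM. The part of these markers in the genotype difference of OAS1 was not tested. In bulk RNA, fewer cells that express a gene and less RNA per cell cannot be told apart.

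The third question was whether the response to pyridostatin differed between the genotypes. No gene was called for this interaction, neither among the 9 nor among all 11881 (0%, limma), and 521 genes, or 4.39%, had an unadjusted p under 0.05. Of the 5 tested genes, 2 were among these 521. IFI6 had an interaction of 0.49 on the log2 scale (SE 0.185, limma adjusted p = 0.999) and IRF9 one of 0.25 (adjusted p = 0.999). Both had a lower mean with pyridostatin in WT and a higher one in PARP3-/-, and neither held after adjustment. OAS1, ISG15 and IFIT3 gave -0.03, 0.27 and -0.08.

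Correlations among the genes across the libraries were low. Over the 36 pairs of the 9 genes, Pearson's r of log2(FPKM + 1) over the 12 libraries ran from -0.46 to 0.53 with a median of 0.07, and 22 pairs were above 0. These libraries share the 4 groups, and r is given as a description. Several of the genes rest on few reads (IFI44 on about 21 in the median library), so a low r does not show that they vary independently. The tested genes most like the mean of the 5 tested members (standardized log2 levels, 12 libraries) were LRRN2 (r = 0.81), CASC8 (0.79), SMPD2 (0.78), ZNF277 (0.77) and TRIT1 (0.76), none of them on the interferon list described next. They were picked as the highest r among all tested genes outside the 9, so their r is high by selection. A shared regulation was not tested.

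To place the 9 genes in their pathway, 106 further genes were listed by role, of which 59 averaged 1 FPKM or more and were tested. Ligand RNA was low or listed at 0: IFNA1, IFNA2, IFNB1, IFNG, IFNL1, IFNL2 and IFNL3 were listed at 0 in all libraries, IFNK was at 0 in 10 of 12, and IFNE, an epithelial interferon, averaged 0.713 FPKM. The machinery that receives and passes on the signal was present, led by the receptor subunit IFNGR1 (40.2 FPKM), the kinase JAK1 (60.5), IRF3 (53.0), TBK1 (20.5) and PIAS1, an inhibitor of STAT signalling (15.8). Of the DNA sensing pair, cGAS (listed as MB21D1) averaged 3.49 FPKM and STING (listed as TMEM173) only 0.139 FPKM, between 0.0747 and 0.249 FPKM.

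Among other interferon-stimulated genes the highest was LGALS3BP, a secreted glycoprotein, at 145.8 FPKM. The relatives of OAS1 were spread widely, with OAS3 at 23.5, OASL at 0.401 and OAS2 at 0.0739 FPKM. CXCL10, RSAD2 and IFI44L, which are strongly induced by interferon in many cells, averaged 0.0871, 0.0524 and 0.0393 FPKM. B2M, the light chain of MHC class I, stood at 305 FPKM, and WARS, a tRNA synthetase induced by interferon-gamma, at 56.0 FPKM. The antigen processing genes PSMB8, PSMB9, TAP1, TAP2 and TAPBP were listed at 0 in all libraries. They lie in an interval of chromosome 6 where 129 of 130 protein-coding names were listed at 0, against 13.5% of the other 17562, so no level can be read for them.

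**Figure D3:**
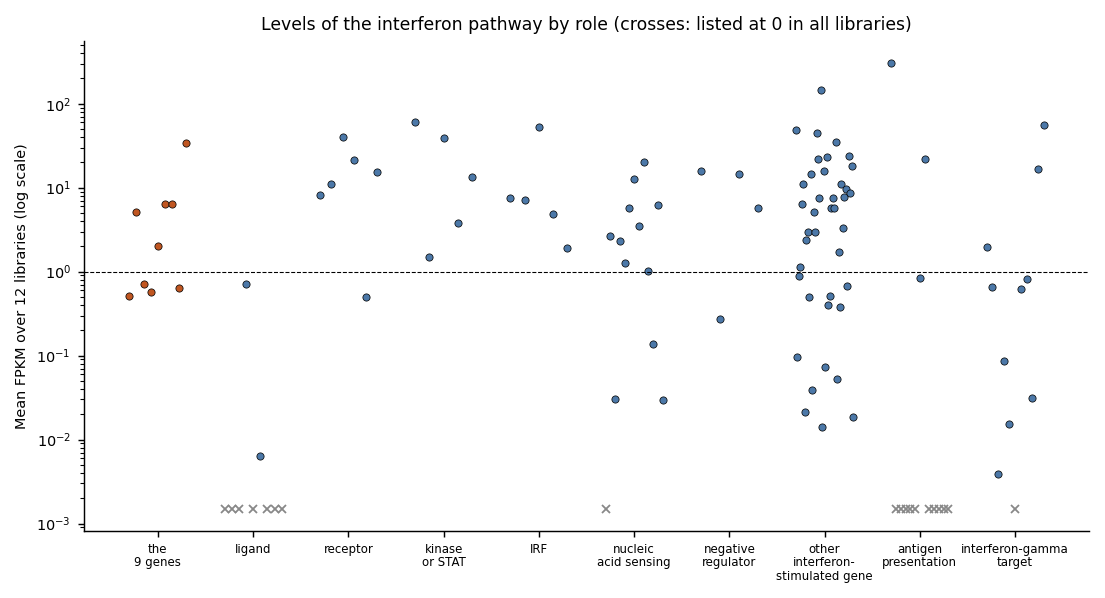
Mean FPKM over the 12 libraries (vertical axis, log scale) of the 9 genes (orange) and of 106 further interferon pathway genes (blue) by role, with crosses for genes listed at 0 in all libraries and a dashed line at 1 FPKM, the minimum for the test. The ligands all lie below the line, whereas 5 of 6 receptors and all 5 kinases and STATs and all 5 IRFs of the list lie above it.

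With pyridostatin, 3 of the 59 tested pathway genes were called in WT (5.08%, against 4.17% of all genes), 2 higher (2.79% of all) and 1 lower (1.38% of all). In PARP3-/- cells 3 were called too (5.08%, against 5.56%), 1 higher (3.05% of all) and 2 lower (2.52% of all). ISG20, an exonuclease that degrades single-stranded RNA, fell in both genotypes, from 8.71 ± 0.747 to 6.32 ± 0.471 FPKM in WT (log2 fold change -0.41, adjusted p = 0.0108) and from 8.42 ± 0.518 to 6.49 ± 0.388 FPKM in PARP3-/- (-0.33, adjusted p = 0.0241). TRIM5, a restriction factor of retroviral capsids, rose from 7.67 ± 0.292 to 9.03 ± 0.138 FPKM in WT (0.21, adjusted p = 0.00985) and from 8.30 ± 0.152 to 9.44 ± 0.158 FPKM in PARP3-/- (0.17, adjusted p = 0.0246). The RNA-editing enzyme ADAR rose in WT (0.26, adjusted p = 0.0452), a call that held in 6 of 20 alternative settings, and IFNGR1 fell in PARP3-/- (-0.16, adjusted p = 0.0246). In PARP3-/- the calls of ISG20, TRIM5 and IFNGR1 held in 15, 14 and 14 of 20 settings, and 0 of the list was called without vehicle replicate 2 or 3 or pyridostatin replicate 2 or 3 of that genotype. In WT the calls of ISG20 and TRIM5 held in 18 and 19 of 20, and 0 of the list was called when only the libraries of that comparison were fitted. STAT2, the partner of IRF9 in ISGF3, gave 0.15 in WT and 0.13 in PARP3-/- and did not pass in either (adjusted p = 0.272 and 0.364).

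Between genotypes, 10 of the 59 were called with vehicle (16.9%, against 9.41% of all genes), 9 higher and 1 lower in PARP3-/-, and 13 with pyridostatin (22.0%, against 10.9%), 12 higher and 1 lower. After a shift of all libraries to the same median the splits were 5 higher and 1 lower, and 9 higher and 1 lower. Leaving out 1 library at a time gave 6 to 19 calls with vehicle and 7 to 22 with pyridostatin, the most without the WT vehicle library of replicate 2 and the fewest without PARP3-/- vehicle replicate 2 or 3 and without WT pyridostatin replicate 1. Over these 59 genes the median log2 fold change was 0.10 with vehicle and 0.09 with pyridostatin, against 0.01 over all genes. None of the genes passed the fold threshold of the study.

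STAT2 was not called and gave 0.17 (adjusted p = 0.195) and 0.15 (adjusted p = 0.235), and the values of IRF9 are given above. OAS3, the closest in level to OAS1 among its relatives, had group means between 23.3 and 23.9 FPKM and log2 fold changes of -0.00 and -0.03, whereas OAS1 was lower by 0.28 and 0.31.

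SOCS3, a feedback inhibitor of cytokine receptors, was 10.6 to 11.1 FPKM in WT and 16.9 to 17.5 FPKM in PARP3-/- with vehicle, and 10.5 to 11.8 against 17.7 to 19.4 FPKM with pyridostatin. It was thus higher in every PARP3-/- library (log2 fold changes 0.62 and 0.67, adjusted p = 1.50e-05 and 7.89e-06). LGALS3BP was 125 ± 8.79 FPKM in WT and 164.7 ± 7.73 FPKM in PARP3-/- with vehicle, and 126 ± 4.35 and 167 ± 7.01 FPKM with pyridostatin (0.39 and 0.40, adjusted p = 0.00136 and 0.00103). The receptor subunit IFNGR1 was also higher in both (0.25 and 0.20, adjusted p = 0.00120 and 0.00418). SOCS3, LGALS3BP and IFNGR1 were called in 20 of 20 alternative settings in both treatments, not counting the fold threshold, which none of them passed.

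Of the remaining calls, 4 genes were higher in PARP3-/- in both treatments: IFITM1, which blocks viral entry (0.30 and 0.41), UBE2L6, the conjugating enzyme for ISG15 (0.32 and 0.38), NMI, which binds STAT proteins (0.25 and 0.20), and PLSCR1, a phospholipid scramblase (0.18 and 0.19), with adjusted p from 0.00406 to 0.0414. With vehicle alone the calls were IFI16, a DNA sensor (0.49, adjusted p = 0.00235), and IKBKE, a kinase that acts on IRF3 (0.25, adjusted p = 0.0287). With pyridostatin alone they were IFITM2 (0.49), the receptor subunits IFNAR2 (0.29) and IFNGR2 (0.20), B2M (0.20) and the transcription factor IRF1 (0.19), with adjusted p from 0.00581 to 0.0437. No interaction was called for any gene of the list, so these calls are not shown to differ between treatments. IFITM1 and IFITM2 have relatives of similar sequence, between which reads could have been split. The calls of IFNAR2 and IRF1 with pyridostatin held in only 8 and 5 of 20 alternative settings, and that of UBE2L6 with vehicle in 8 of 20.

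**Figure D4:**
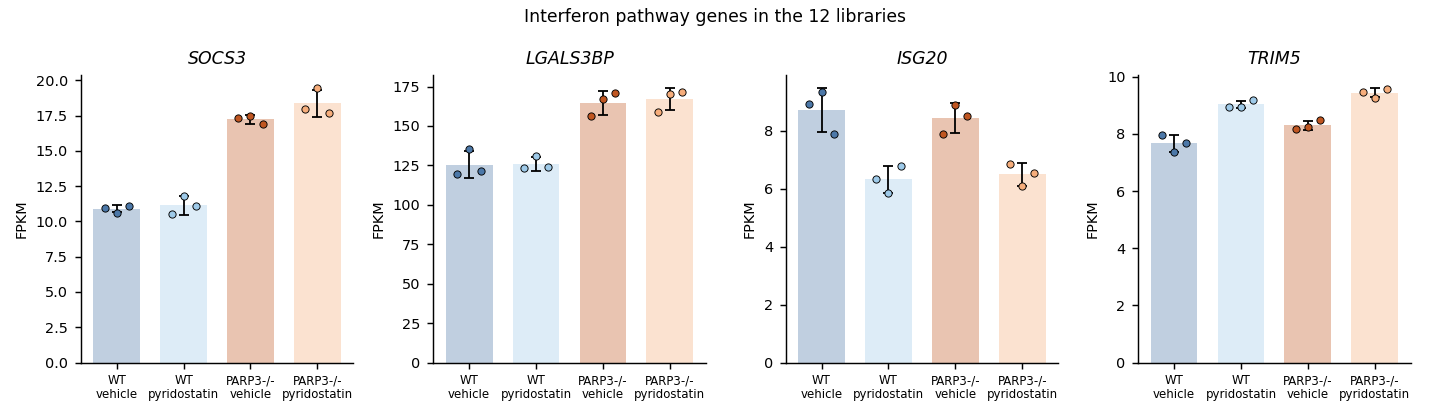
Level in FPKM (vertical axes, each from 0) of SOCS3, LGALS3BP, ISG20 and TRIM5 in the 4 groups, with 1 point per library, bars at the mean of 3 libraries and error bars of 1 SD. SOCS3 and LGALS3BP were higher in every PARP3-/- library than in any WT library, and with pyridostatin every ISG20 value was lower and every TRIM5 value higher than with vehicle in the same genotype, although in PARP3-/- neither call held without any 1 of 4 libraries.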

How the data were processed

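The 12 RNA-seq libraries came from A549 cells of both genotypes, given vehicle or pyridostatin. The authors made stranded mRNA libraries, read as single-end 75-base reads, and deposited FPKM values with 1 column per library and no pooling. The submitters' processing notes name bcl2fastq 2.16, STAR 2.5 and Cufflinks, and the genome builds mm9 and hg19 without their roles. The authors tested counts with DESeq2, and those counts were not used here. FPKM already holds the scaling to transcript length and depth, and no raw counts support the tests.

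The 11881 genes that averaged 1 FPKM or more were analysed as log2(FPKM + 1) with limma 3.58.1 in R 4.3.3 (4 group means, eBayes with a trend, Benjamini-Hochberg adjustment). Fold changes are on this scale, which understates changes of low genes. For PARP3 alone, a two-sided exact permutation test was used. The replicates are biological, and whether same-numbered cultures were handled together is not given in the sources used here. Depth was estimated from low FPKM values with GENCODE release 29 transcript lengths (quartiles over genes for 1 library 23700000 and 25600000 reads) and covers counting error only. The fit was tested on simulated data with known changes, but its recovery of small changes is not reported here.

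The 9 genes and the pathway list were chosen with earlier results of these data known. Named are the 9 genes, list genes called in any comparison, the highest gene of each role, the 5 genes most alike, PARP3 and CDKN1A. Some genes that this rule names are not reported here. MB21D1, TMEM173, STAT2, OAS2, OAS3, OASL, CXCL10, RSAD2, IFI44L and the list genes at 0 were added after their values were seen. Alternatives were a pseudocount of 0.1, no filter or a mean of 5 FPKM, quantile normalization, a replicate block, eBayes with no trend, a fit of each comparison on its own libraries, a shift of all libraries to the same median, the fold threshold of 1 and each library left out. Promoter sequences were from RefSeq (GRCh38.p14). Python 3.11.15, numpy 2.4.6, pandas 2.3.3 and matplotlib 3.10.9 were used.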

Additional observations from a re-analysis of the deposited data

How the results depend on the processing

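None of the 9 genes was called for pyridostatin or for the interaction under any alternative run. Over 45 differences of these genes and their alternatives (846 values), 806 kept their sign and 40 took another sign with no call in either. Apart from the fold threshold, which it did not pass, OAS1 was lower in PARP3-/- in all 20 alternatives (log2 fold change -0.32 to -0.22 with vehicle and -0.35 to -0.29 with pyridostatin) and was called in 19 of 20 with vehicle (adjusted p from 0.00490 to 0.0741) and in 20 of 20 with pyridostatin (8.03e-04 to 0.0242).

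The number of calls over all genes depended more on the settings. With the fold threshold of 1, the 1118, 1297, 495 and 661 genes called (genotype with vehicle, genotype with pyridostatin, pyridostatin in WT, pyridostatin in PARP3-/-) became 43, 47, 6 and 8, and 0 of the 9 genes and 0 of the pathway list were left. A fit of only the libraries of each comparison leaves fewer samples for the spread, and the counts over all genes moved in both directions. Between genotypes, 532 genes, 0 of the 9 and 6 of the pathway list were called with vehicle. With pyridostatin these were 1623 genes, 1 of the 9 and 18 of the list. For pyridostatin against vehicle, 65 genes and 0 of the list were called in WT, and 881 genes and 3 of the list in PARP3-/-. The shift to a common median left 6 list genes with vehicle, and for the interaction 1 gene was called with a pseudocount of 0.1 and 1 without the filter. The cause was not tested.

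Leaving out 1 library at a time, the genotype comparison with vehicle called 746 to 1644 genes and 6 to 19 of the list, that with pyridostatin 806 to 2298 genes and 7 to 22 of the list, pyridostatin in WT 178 to 706 genes and 1 to 4 of the list, pyridostatin in PARP3-/- 254 to 1559 genes and 0 to 6 of the list, and the interaction 0 to 1 genes. The counts of 19, 2298, 22, 1559 and 6 came without the WT vehicle library of replicate 2. The lowest counts came without PARP3-/- vehicle replicate 2 or 3 (list, genotype with vehicle, 6), WT pyridostatin replicate 1 (178 genes and 1 of the list for pyridostatin in WT, 7 of the list for the genotype with pyridostatin), WT pyridostatin replicate 3 (806) and PARP3-/- pyridostatin replicate 3 (254).

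With the replicate number as a block, 1052, 1214, 411 and 589 genes, 1, 1, 0 and 0 of the 9 genes, and 13, 14, 3 and 2 of the list were called, and 0 for the interaction, so no count moved by over 1.5 times. For each library, the deviation of every tested gene from its group mean was taken, and these deviations were correlated between same-numbered libraries. The values were 0.103, 0.0910 and 0.0663 between genotypes with vehicle and -0.0207, -0.00237 and 0.0557 with pyridostatin. Between treatments they were -0.0582, 0.0264 and -0.120 in WT and 0.0733, 0.0597 and 0.216 in PARP3-/-. Differently numbered libraries were not compared, so these values have no reference and do not decide whether the numbers mark pairs. The numbers were not taken as pairs.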
